A study of Mus musculus with 4 samples.

Results

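The 9 genes described here encode the fast and slow forms of the 3 troponin subunits and the muscle tropomyosins. They are Tnnt3, Tnni2, Tnnc2 and Tpm1 (fast fibres), Tnnt1, Tnni1, Tnnc1 and Tpm3 (slow fibres), and Tpm2, which both fibre types use. They were chosen by gene name and are 9 of the 16472 genes in the table. RNA of skeletal muscle of wild-type (WT) mice was sequenced in 4 libraries, 2 of isolated mitochondria and 2 labelled as tissue minus mitochondria, called remaining tissue here. Titles of the second group name total tissue, and a supplementary legend of the study speaks of lysates of total muscle, so the sources differ on whether it was whole or depleted muscle. The age of the mice, the muscle taken and whether libraries came from separate animals are not given in the sources used here, so p-values measure only the spread between these libraries, which may be technical. The study asked which nuclear-encoded RNAs lie with mitochondria.

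The thin filament of striated muscle is built of actin, with tropomyosin lying along it as a coiled coil and a troponin complex at regular intervals. Troponin C binds calcium, troponin I inhibits the interaction of actin with myosin, and troponin T anchors the complex to tropomyosin. Calcium bound to troponin C releases the inhibition and shifts tropomyosin, so that myosin heads can attach. Fast and slow fibres carry these proteins from separate genes, and the slow form of troponin C is also the one of heart muscle. Their messenger RNAs (mRNAs) are transcribed in the nucleus and translated in the cytoplasm.

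To show how far the reads of the fast and slow forms can be told apart, the coding sequences of each pair were aligned. Identity was 70.4% for Tnnt3 and Tnnt1, 72.1% for Tnni2 and Tnni1, 70.4% for Tnnc2 and Tnnc1 and 76.3% for Tpm1 and Tpm3. The stretches of 75 bases, the length of a read, with the fewest differences in each pair are printed 5′ to 3′ on the coding strand. They were read from GENCODE M21 transcripts on GRCm38, and capitals mark the bases at which the partners differ.
Tnnt3 coding bases 287 to 361, chr7:142511330-142511495, plus strand, across 1 intron: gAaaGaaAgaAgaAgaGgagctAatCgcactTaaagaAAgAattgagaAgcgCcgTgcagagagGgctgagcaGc
Tnnt1 coding bases 266 to 340, chr7:4509605-4509995, minus strand, across 1 intron: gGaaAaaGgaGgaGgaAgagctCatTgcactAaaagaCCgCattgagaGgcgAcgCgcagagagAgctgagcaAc
Tnni2 coding bases 379 to 453, chr7:142444008-142444082, plus strand, in 1 exon: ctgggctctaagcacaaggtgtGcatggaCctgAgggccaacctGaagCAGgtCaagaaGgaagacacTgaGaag
Tnni1 coding bases 382 to 456, chr1:135808735-135808809, plus strand, in 1 exon: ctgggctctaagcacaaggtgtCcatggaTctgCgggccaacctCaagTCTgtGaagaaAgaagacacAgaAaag
Tnnc2 coding bases 385 to 459, chr2:164777326-164777538, minus strand, across 1 intron: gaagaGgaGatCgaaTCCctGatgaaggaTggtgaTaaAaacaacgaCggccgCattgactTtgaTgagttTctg
Tnnc1 coding bases 388 to 462, chr14:31211350-31211513, plus strand, across 1 intron: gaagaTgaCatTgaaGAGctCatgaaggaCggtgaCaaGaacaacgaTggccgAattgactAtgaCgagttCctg
Tpm1 coding bases 301 to 375, chr9:67033993-67036068, minus strand, across 1 intron: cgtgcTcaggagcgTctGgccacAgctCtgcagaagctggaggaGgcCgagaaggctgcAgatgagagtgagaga
Tpm3 coding bases 304 to 378, chr3:90086506-90087455, plus strand, across 1 intron: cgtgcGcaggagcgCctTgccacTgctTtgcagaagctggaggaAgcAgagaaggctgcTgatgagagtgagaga
The fewest differences in 75 coding bases were 17 for troponin T, 11 for troponin I, 15 for troponin C and 8 for Tpm1 and Tpm3. The authors' alignment allowed up to 7 mismatches in a read of this length, so none of these printed stretches could be assigned to its partner without exceeding that limit. For Tpm2 against Tpm1 and Tpm3, the fewest differences were 10 and 9. Shorter trimmed reads were also kept by the authors, with fewer mismatches allowed, and were not covered by this comparison. The longest identical runs were 16 to 22 bases in the 4 fast and slow pairs and 35 between Tpm1 and Tpm2.

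A pair of members share sequence with other genes. Of the 2159 stretches of 75 bases in the Tpm3 transcript, 1151 (53.3%) occurred identically in the retrocopy Tpm3-rs7 (chr14:113314608-113316754), and reads that align in more than 1 place had been left out of the counts. The Tpm3 counts are therefore uncertain, and its levels per length, which use all its exons, may be too low. Of the 800 exonic bases of Tnnc2, 592 (74.0%) lie opposite exons of Ube2c, which is on the other strand. Reads that overlap several genes had also been left out, and the strand setting of the counting is not given in the sources used here, so Tnnc2 counts are uncertain too. Ube2c itself had 79 and 84 normalized counts in remaining tissue and 18 and 25 in isolated mitochondria. The other 7 members shared no such stretch with another gene.

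Values are normalized counts, which the authors made by dividing the reads of a gene by a size factor of the library. A single read was worth 9.049 and 5.059 normalized counts in isolated mitochondria 1 and 2, and an estimated 0.142 in both libraries of remaining tissue. Reads assigned to genes numbered 42749263 and 35306106 for isolated mitochondria, and the totals of remaining tissue were estimated at 15704036 and 15301865. Genes encoded in the mitochondrial genome took 94.1 to 95.3% of reads in isolated mitochondria and 20.5 to 22.3% in remaining tissue. Nuclear genes without copies of mitochondrial ones were left with 100924 and 181152 reads in isolated mitochondria, against about 11989623 and 11968682 in remaining tissue. Precision for slow members in isolated mitochondria was thus set by 0 to 70 reads a gene. Of 7 myofibre markers 6 were lower in isolated mitochondria (sums 202204 and 212211 against 32603 and 30122), while all 6 fibroblast markers were higher (1569 and 1675 against 10153 and 18571). Smooth muscle markers summed to 387 and 343 against 363 and 237, with Cnn1 at 0 in isolated mitochondria, and none of the 4 tested was called (limma, likewise 0 at an unadjusted p under 0.05, in edgeR and in DESeq2). Endothelial markers summed to 417 and 416 against 81 and 95, with Emcn at 0 in isolated mitochondria. Of the 4 tested, 1 was called lower in limma, and 3 in edgeR and in DESeq2. The part of these other cells in the results below was not tested, and fewer cells of a type and less RNA per cell cannot be told apart in such libraries.

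In remaining tissue, fast forms outnumbered slow forms by far in all 4 families. Per kilobase of exon, Tnnc2 (chr2:164777161-164779967) was the most abundant member at 15991.2 normalized counts per kilobase, followed by Tnnt3 (chr7:142498836-142516009) at 13047.7 and Tnni2 (chr7:142441808-142444410) at 7226.8. Among nuclear protein-coding genes they took ranks 3, 4 and 6. With the longest transcript as length, Tnnt3 (19142.3) came before Tnnc2 (18275.7), so the order of these neighbours rests on the length used.

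The tropomyosins Tpm2 (chr4:43514711-43523765) and Tpm1 (chr9:67022590-67049406) followed at 2840.7 and 2746.5 normalized counts per kilobase of exon. Their replicate spread exceeded that gap, and the longest transcripts reversed it, with 6163.0 for Tpm1 and 3799.3 for Tpm2. The slow forms lay far below, with 132 for Tnnt1 (chr7:4504570-4516382), 93.2 for Tnnc1 (chr14:31208312-31211729), 64.8 for Tpm3 (chr3:90072649-90100902) and 20.7 for Tnni1 (chr1:135779434-135810989). This order was the same in both libraries of remaining tissue, although the ranges of neighbours among Tnnt1, Tnnc1 and Tpm3 overlapped, since all were higher in replicate 2. With the longest transcript as length, Tpm3 (166.0) came before Tnnc1 (134.5), and Tpm3 is the member with reads left out. Troponin T thus had 143.9 and 75.4 fast transcripts for each slow one per length in remaining tissue 1 and 2, and troponin I had 481.7 and 273.6. By the longest transcript these were 101.4 and 53.15 for troponin T, and 481.8 and 273.7 for troponin I.

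**Figure D1:**
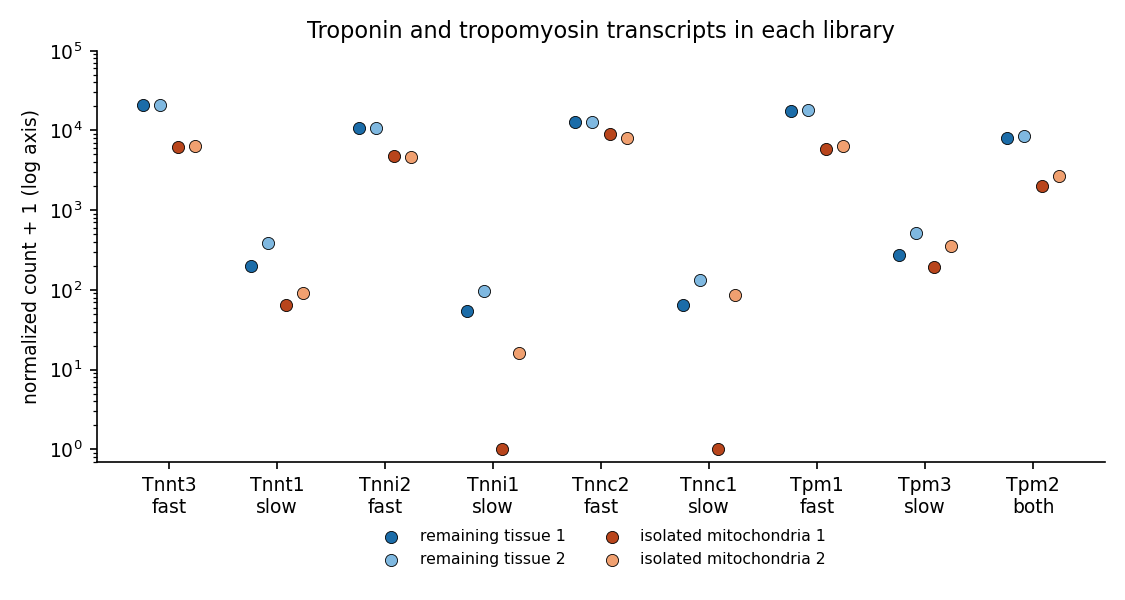
Normalized counts of the 9 members (plus 1, log axis) in each of the 4 libraries, with 1 point a library and the fibre type of each form under its name. Fast forms and Tpm2 lie between 2027 and 20741 in the 4 libraries, slow forms at 516 or below, and Tnni1 and Tnnc1 are at 0 in isolated mitochondria 1.

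The comparison of isolated mitochondria with remaining tissue was made to see how these cytoplasmic mRNAs were distributed. According to the methods, which describe hearts, isolated mitochondria were treated with digitonin and RNase A before RNA was isolated. No such step is described for the other fraction, so its part in the values cannot be told apart from that of the fraction. In limma, with adjustment over the 6916 genes tested, 4 of the 9 members were lower in isolated mitochondria (Tnnt3, Tnni2, Tpm1 and Tpm2), beside 9.30% of all genes tested. None was higher, beside 7.32% of all genes, and none was higher at an unadjusted p under 0.05, in edgeR or in DESeq2. The groups did not overlap, with lower values in isolated mitochondria, for 7 of 9 members, beside 43.7% of all genes, and 6 of 9 had an unadjusted p under 0.05, beside 37.0% of all genes (in either direction). The count of members called lower was 2 without remaining tissue 2, when 2.72% of all genes were, and 7 without isolated mitochondria 2, when 46.2% were. All 9 members passed the filter of a mean of 20 normalized counts. The median log2 fold change over all genes was −0.44, and that of the 4 fast members −1.37. Both moved with the scaling. When libraries were scaled to nuclear genes without copies, the median was 0.43 for all genes and −0.47 for the fast members, only Tnnt3 was still called, and Tnnc2 and Tpm3 turned to the higher side without a call.

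Fast troponin T, Tnnt3, anchors the complex on tropomyosin. It had 20568 and 20741 normalized counts in remaining tissue and 6280 and 6430 (694 and 1271 reads) in isolated mitochondria. The groups were far apart and the replicates of each close together. The log2 fold change, isolated mitochondria minus remaining tissue on the log2(normalized count + 1) scale, was −1.70 ± 0.17 (SE, n = 2 and 2, limma adjusted p = 0.0144), or 3.25-fold lower. Scaled to nuclear genes without copies, Tnnt3 was at −0.81 (limma adjusted p = 0.0447), when 2.65% of all genes were called lower. Scaled to the sum over all genes, Tnnt3 was at −8.60, when 96.7% were. It was called lower under all 16 alternative settings.

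The inhibitory subunit of fast fibres, Tnni2, had 10825 and 10812 normalized counts in remaining tissue and 4787 and 4665 (529 and 922 reads) in isolated mitochondria. Its level was 2.29-fold lower in isolated mitochondria (log2 −1.19 ± 0.16, SE, limma adjusted p = 0.0229). The groups did not overlap. The call was lost without remaining tissue 1 (limma adjusted p = 0.191) or without remaining tissue 2 (0.1955), with the fold change at −1.19 and −1.20.

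Fast troponin C, Tnnc2, which binds the calcium, differed least among the fast forms. It had 12675 and 12911 normalized counts in remaining tissue and 9031 and 7933 (998 and 1568 reads) in isolated mitochondria, so that the groups were apart but close. The log2 fold change was −0.60 ± 0.18 (SE, limma adjusted p = 0.0943), 1.51-fold lower and within 0.15 of the median of all genes. It did not pass the test, nor did it in edgeR (−0.34, adjusted p = 0.283) or DESeq2 (−0.29, adjusted p = 0.235). It passed without isolated mitochondria 1 (−0.69, limma adjusted p = 0.0221) or isolated mitochondria 2 (−0.50, 0.0286), when 40.1% and 46.2% of all genes were called lower, and not without either library of remaining tissue (0.724 and 0.743).

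Of the tropomyosins, Tpm1, the alpha form of fast fibres, had 17428 and 18194 normalized counts in remaining tissue and 5800 and 6455 (641 and 1276 reads) in isolated mitochondria. It was 2.91-fold lower (log2 −1.54 ± 0.17, SE, limma adjusted p = 0.0185). The call was lost by a little without remaining tissue 1 (limma adjusted p = 0.0532) and without remaining tissue 2 (0.0681). The beta form Tpm2, shared by both fibre types, had 7988 and 8539 against 2027 and 2651 (224 and 524 reads) and was 3.56-fold lower (log2 −1.83 ± 0.21, SE, limma adjusted p = 0.0185). Groups of both genes were apart by more than their replicate spread.

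The slow forms had far fewer reads, and none of the 4 was called in limma (1 at an unadjusted p under 0.05, 1 adjusted in edgeR and 2 in DESeq2). Slow troponin T, Tnnt1, had 199 and 383 normalized counts in remaining tissue and 63 and 91 (7 and 18 reads) in isolated mitochondria. The groups did not overlap, and the log2 fold change of −1.85 ± 0.42 (SE) came close to the threshold (limma adjusted p = 0.0578). Tnnt1 was called lower in 7 of the 16 alternative settings, among them edgeR (−1.63, adjusted p = 0.0481) and DESeq2 (−1.60, adjusted p = 0.0293). Another was upper quartile scaling (−2.31, limma adjusted p = 0.0288), under which 20.5% of all genes were lower. Without remaining tissue 1 its log2 fold change was −2.32. It did not pass without remaining tissue 2 (−1.38, limma adjusted p = 0.389), without isolated mitochondria 1 (0.166) or 2 (0.112), or when scaled to nuclear genes without copies (−0.96, 0.191).

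Slow troponin I, Tnni1, had 54 and 95 normalized counts in remaining tissue and 0 and 15 (0 and 3 reads) in isolated mitochondria. Its fitted log2 fold change of −4.18 ± 1.53 (SE, limma adjusted p = 0.136) depends on the pseudocount, and was −2.37 with a pseudocount of 10. As a share of the nuclear reads without copies, pooled over replicates, Tnni1 in isolated mitochondria was 0.242 times that in remaining tissue (95% interval 0.0499 to 0.711, counting error only). By this measure Tnnt1, Tpm2, Tnnt3, Tpm1 and Tnni2 lay between 0.518 and 0.808. Tnnc1 was at 1.055 (0.613 to 1.696), Tnnc2 at 1.208 (1.162 to 1.256) and Tpm3 at 1.391 (1.118 to 1.711). DESeq2 called Tnni1 lower (−2.73, adjusted p = 0.0369) and edgeR did not (−2.71, adjusted p = 0.109). Without isolated mitochondria 1 the limma value was −2.18 (adjusted p = 0.0885). Without isolated mitochondria 2 the group is 1 library with 0 reads, so the limma call there (−6.18, adjusted p = 0.0232) is set by the pseudocount and by the spread of the other group. In deposited normalized counts, a floor of 3 reads in isolated mitochondria 1 lies 2.74-fold below the mean of remaining tissue. This value moves with the scaling, and the pooled interval of Tnni1 above reaches up to 0.711.

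Slow and cardiac troponin C, Tnnc1, had 63 and 131 normalized counts in remaining tissue and 0 and 86 (0 and 17 reads) in isolated mitochondria. The groups overlapped, since isolated mitochondria 2 lay above remaining tissue 1. The replicates of isolated mitochondria differed more than the groups did, and the log2 fold change was −3.30 ± 2.29 (SE, limma adjusted p = 0.350). It was −0.08 without isolated mitochondria 1, so the value rests on that library. Without isolated mitochondria 2 the group is again 1 library with 0 reads, and the limma call (−6.52, adjusted p = 0.0292) is set as for Tnni1. In deposited normalized counts, a floor of 3 reads in isolated mitochondria 1 lies 3.57-fold below the mean of remaining tissue for Tnnc1. This value moves with the scaling, and the pooled share ratio of Tnnc1 above was 1.055 (0.613 to 1.696). On reads the log2 fold change of Tnnc1 was −0.61 in edgeR (adjusted p = 0.653).

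The slow alpha-tropomyosin Tpm3 had 272 and 516 normalized counts in remaining tissue and 190 and 354 (21 and 70 reads) in isolated mitochondria. Counts are of whole genes, with 7 coding transcripts annotated for Tpm3 and 18 for Tpm1, and were not split by transcript. Whether all Tpm3 reads came from the form of slow fibres was not tested. In both fractions replicate 2 held nearly the double of replicate 1, with ratios of 1.90 and 1.86, and the groups overlapped. The log2 fold change was −0.53 ± 0.48 (SE, limma adjusted p = 0.457). Tpm3 was at −0.99 without remaining tissue 1 and −0.07 without remaining tissue 2. It was at −0.08 without isolated mitochondria 1 and −0.98 without isolated mitochondria 2. Its retrocopy Tpm3-rs7 had 34 and 57 normalized counts in remaining tissue and 90 and 56 in isolated mitochondria.

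**Figure D2:**
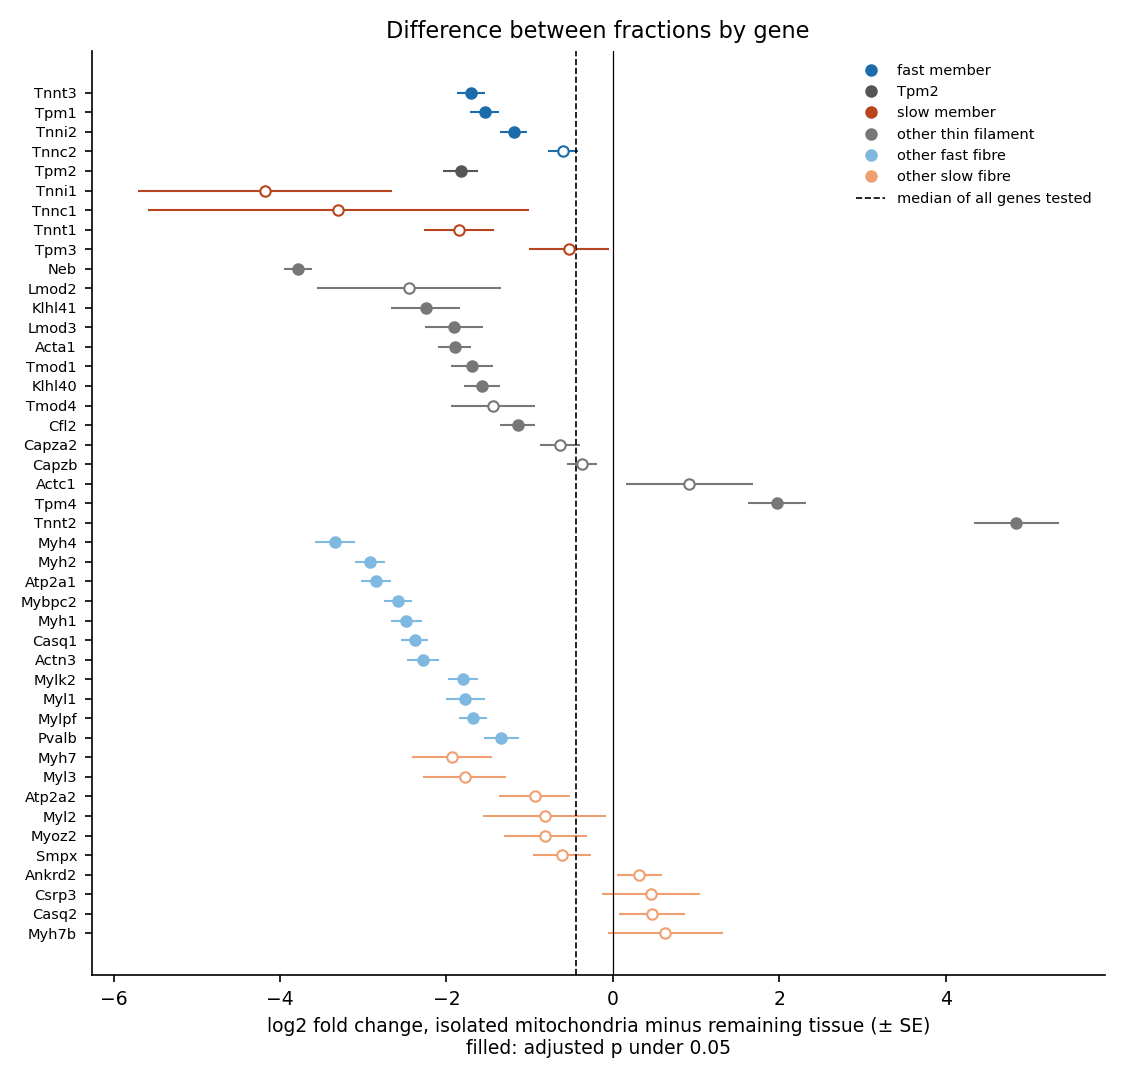
Log2 fold change (isolated mitochondria minus remaining tissue, with SE) of each member and of the other thin filament, fast fibre and slow fibre genes, with filled points for an adjusted p under 0.05. The fast members lie between −1.70 and −0.60, the other fast fibre genes between −3.34 and −1.34, and the dashed line marks the median of all genes at −0.44.

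In a ratio of fast to slow form within a library a scaling factor cancels, except where the slow form is at or near 0 reads and the pseudocount of 1 sets the ratio. For troponin T, log2 of Tnnt3 over Tnnt1 was 6.68 and 5.76 in remaining tissue and 6.62 and 6.13 in isolated mitochondria. The groups overlapped, and the difference of 0.15 was smaller than the replicate SDs of 0.66 and 0.35 (exact permutation test, two-sided p = 1). Its sign rested on single libraries, with −0.31 without remaining tissue 2 and −0.09 without isolated mitochondria 1. With 2 libraries against 2, the smallest p of this test is 0.333, so none of the 4 ratios could pass 0.05 (adjusted over them or not).

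For troponin I, log2 of Tnni2 over Tnni1 was 7.62 and 6.82 in remaining tissue and 12.23 and 8.19 in isolated mitochondria. The difference was 2.99 (exact permutation p = 0.333), but 0.97 without isolated mitochondria 1, in which Tnni1 had 0 reads and the ratio was set by the pseudocount. For troponin C, log2 of Tnnc2 over Tnnc1 was 7.63 and 6.61 against 13.14 and 6.51. The groups overlapped, and the difference of 2.70 (exact permutation p = 1) became −0.61 without isolated mitochondria 1, again the library without a read of the slow form.

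For tropomyosin the ratio was lower in isolated mitochondria. Log2 of Tpm1 over Tpm3 was 6.0 and 5.14 in remaining tissue and 4.92 and 4.18 in isolated mitochondria, so that the groups did not overlap. The difference was −1.01 (exact permutation p = 0.333), and −1.07 and −0.95 within replicate numbers 1 and 2. Without remaining tissue 1 the difference was −0.58, and without remaining tissue 2 it was −1.44. With Tpm2 in place of Tpm1 it was −1.30. Whether tropomyosin differs from the troponins in this was not tested, and Tpm3 is the member with stretches shared with a retrocopy. The ratio also covers all transcripts of each gene, not the muscle forms alone.

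Expressed per length, the slow form made up 0.690% and 1.31% of troponin T in remaining tissue 1 and 2. In isolated mitochondria it was 0.719% (exact Clopper-Pearson 95% interval 0.289 to 1.48%) and 1.01% (0.597 to 1.59%). The intervals of isolated mitochondria spanned most of the range of remaining tissue, and no difference was detectable at this depth.

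For troponin I the slow share was 0.207% and 0.364% in remaining tissue and 0.135% (0.0278 to 0.395%) in isolated mitochondria 2. In isolated mitochondria 1 it was 0 of 529 reads of the pair. This allows a share of up to 0.567% of reads by a floor of 3 reads and 0.695% by the exact interval. Both lay above the share of reads in remaining tissue 1 (0.497%) and below that in remaining tissue 2 (0.871%). For troponin C it was 0.380% and 0.774% in remaining tissue and 0.826% (0.482 to 1.32%) in isolated mitochondria 2. In isolated mitochondria 1 it was 0 of 998 reads, which allows up to 0.301% of reads by the floor and 0.369% by the exact interval, below the 0.494% and 1.005% of reads in remaining tissue. For the tropomyosins it was 1.64% and 2.93% in remaining tissue and 3.37% (2.10 to 5.11%) and 5.52% (4.33 to 6.92%) in isolated mitochondria. Only the latter interval lay above both values of remaining tissue, and these shares carry the reads of Tpm3 that were left out. They are shares of gene counts that were not split by transcript. Intervals and limits cover counting error only.

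**Figure D3:**
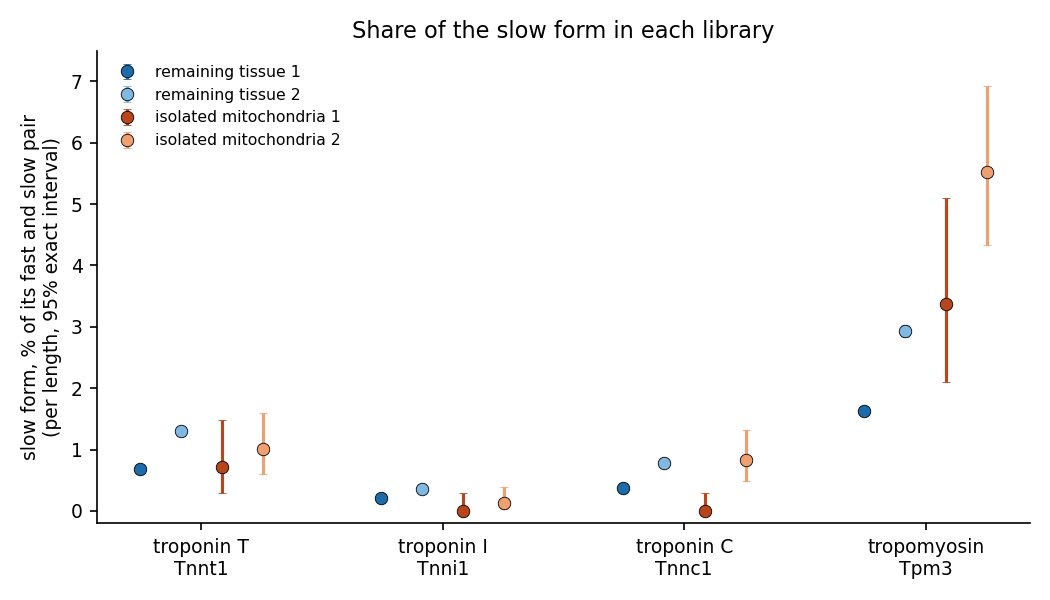
Share of the slow form in its fast and slow pair, per length, in percent, in each of the 4 libraries, with exact 95% intervals of the reads. In remaining tissue every pair has a higher share in replicate 2, while the intervals of isolated mitochondria are wide.

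The libraries of remaining tissue differed far more in the slow forms than in the fast ones. Replicate 2 over replicate 1 was 1.93 for Tnnt1, 1.76 for Tnni1, 2.08 for Tnnc1 and 1.90 for Tpm3. Fast forms had ratios of 0.999 to 1.04, and Tpm2 one of 1.07. The slow forms together held an estimated 4146 and 7932 reads, so counting error is small beside this gap.

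Of the 3469 genes with at least 50 normalized counts in remaining tissue 1, 15 (0.432%) had a ratio at least as high as that of Tnni1, a cut that by its choice holds the 4 slow members. Highest among the 15 were genes of fatty acid synthesis, Fasn with 4.11, Scd1 with 3.51, Acly with 2.64 and Acaca with 2.40, followed by the cardiac actin Actc1 with 2.28. They were named after their values were seen, and their part was not tested. Other slow fibre genes had ratios of 0.941 to 1.91, with a median of 1.36, and the ventricular and slow myosin light chain Myl2 was highest among them (154 and 294). Other fast fibre genes had ratios of 0.887 to 1.253. This pattern was noticed in the values and has no test, as each library is 1 sample. In isolated mitochondria replicate 2 also held more of each slow form, at 91 over 63 for Tnnt1 and 354 over 190 for Tpm3. These rest on 18 and 7 reads for Tnnt1 and 70 and 21 for Tpm3, so counting error is not small there. Values of this kind cannot be told apart from other differences between the libraries, and none was tested.

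**Figure D4:**
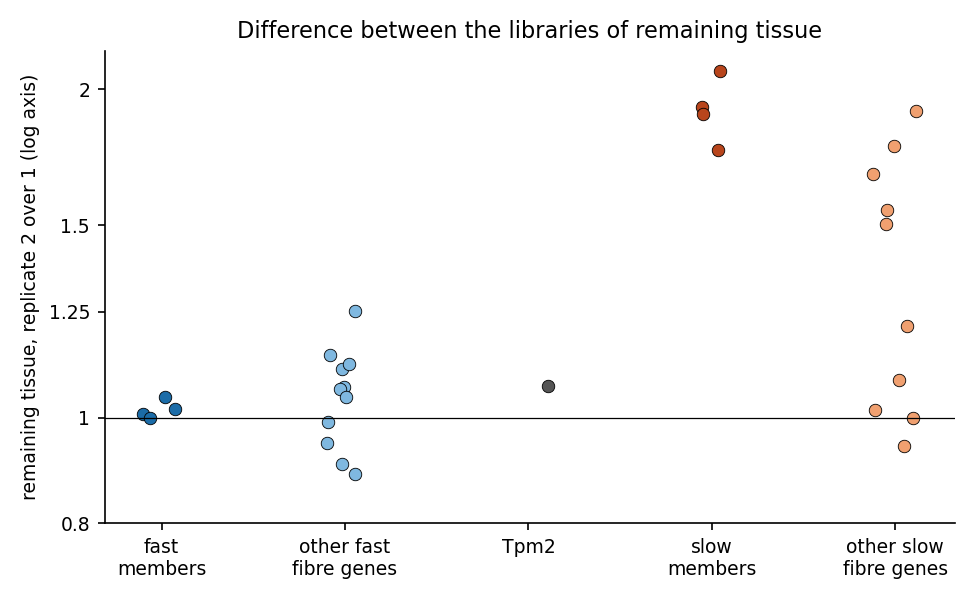
Normalized count in remaining tissue replicate 2 over replicate 1 (log axis), with 1 point a gene. Slow members lie between 1.76 and 2.08, fast members between 0.999 and 1.04, and the other fast and slow fibre genes are shown for comparison.

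Beside the other genes of the fast fibre programme, the summed members were less reduced in isolated mitochondria, but gene by gene the lists overlapped. All 11 other fast fibre genes were lower, from Pvalb, a calcium buffer (log2 −1.34 ± 0.21, SE, limma adjusted p = 0.0291), to Myh4, the myosin heavy chain of the fastest fibres (−3.34 ± 0.24, limma adjusted p = 0.00840), with a median of −2.38. Pvalb, Mylpf (−1.68), Myl1 (−1.77) and Mylk2 (−1.80) lay within the range of the fast members and Tpm2 (−1.83 to −0.60). The remaining fast fibre genes lay lower. Together the 9 members took 4.12% and 4.26% of nuclear reads without copies in remaining tissue and 3.09% and 3.13% in isolated mitochondria. The 11 other fast fibre genes took 14.4% and 15.1% in remaining tissue and 4.05% and 3.71% in isolated mitochondria. Myh4 alone made up 130847 of their 245143 normalized counts in remaining tissue 1.

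The mean share of the members was thus 1.35 times higher in remaining tissue, against 3.80 times for the other fast fibre genes. Log2 of the summed members over these genes was −1.81 and −1.82 in remaining tissue and −0.39 and −0.24 in isolated mitochondria, a difference of 1.5, or 2.82-fold. It exceeded the replicate spread, but the exact permutation test cannot go below p = 0.333, which is its value here, and the ratio was chosen after values were seen.

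Among the fast genes length moved with the fold change, but not over the 9 members. Over 16 genes (the 4 fast members, the shared Tpm2 and the 11 others), the longest transcript and the log2 fold change had a Spearman correlation of −0.86. This is a description across genes that share the same 4 libraries, in lists chosen with earlier results known. Tnnc2, the shortest at 700 bases, differed least, and the myosin heavy chains of about 6016 to 6083 bases were among the most reduced. Over the 9 members alone the correlation was 0.08, and over 6861 nuclear genes −0.17. According to the methods, the fragmentation time was adjusted for mitochondrial samples, and isolated mitochondria were treated with RNase A (described for hearts). Fragmentation, this treatment and fraction cannot be told apart, and the part of length in the result was not tested.

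**Figure D5:**
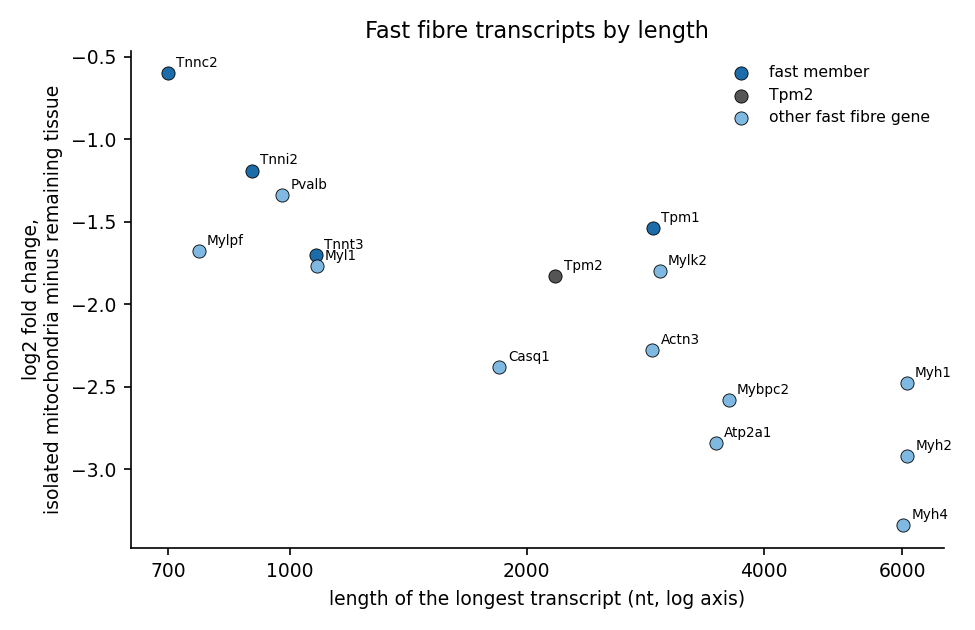
Log2 fold change (isolated mitochondria minus remaining tissue) against the length of the longest transcript in bases (log axis) for the fast members, Tpm2 and the other fast fibre genes. Tnnc2 with 700 bases is at −0.60 and the long myosin heavy chains lie between −3.34 and −2.48.

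Of the other thin filament genes, 14 of the 17 listed were tested, and 7 were lower, 2 higher and 5 neither, with a median of −1.5. Over all genes tested, 9.30% were lower and 7.32% higher. Calls of the thin filament genes moved with the library left out, as did those over all genes. The lowest was Neb, which encodes the giant filament ruler nebulin, with 45852 and 43724 normalized counts in remaining tissue against 3212 and 3319 (log2 −3.78 ± 0.17, SE, limma adjusted p = 0.00317). Skeletal actin, Acta1, the filament on which the members sit, had 31476 and 33001 against 7773 and 9531 (−1.90 ± 0.20, limma adjusted p = 0.0162), close to Tnnt3 and Tpm2.

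The cardiac form of troponin T, Tnnt2, ran the other way. It passed the filter on low values only through isolated mitochondria, so that a gene of its level in remaining tissue had to differ to be tested. It had 6 and 4 normalized counts in remaining tissue and 118 and 243 (13 and 48 reads) in isolated mitochondria, a log2 fold change of 4.85 ± 0.51 (SE, limma adjusted p = 0.0157). Under scaling by the sum over all genes, which put the median gene at −7.27, it was −1.77, and by the sum over genes that mitochondria do not encode it was 2.06 (adjusted p = 0.0615 in limma). The non-muscle tropomyosin Tpm4 had 50 and 63 against 172 and 288 (1.97 ± 0.35, SE, limma adjusted p = 0.0371). The call for Tpm4 was lost without remaining tissue 1 (1.80, limma adjusted p = 0.118), without a filter (0.0572), at a mean of 5 (0.0640) and without trend (0.0627), and scaling by the sum over all genes (−4.90) or over genes that mitochondria do not encode (−1.01) turned its direction.

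Of the heart muscle markers, Myh6 had 196 and 334 normalized counts in remaining tissue and 525 and 1543 in isolated mitochondria (limma adjusted p = 0.122), and Ryr2 had 1 and 1 against 36 and 162 (0.0533), also passing the filter only through isolated mitochondria. Neither was called in limma, and both were in edgeR and DESeq2. With Tnnt2 the 3 summed to 203 and 339 against 679 and 1948. Their part and that of the fibroblast markers in the values of Tnnt2 and Tpm4 was not tested. Nppa, Tnni3 and Myl7 were not analysed here.

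Among the 10 other slow fibre genes, none was called in limma (2 at an unadjusted p under 0.05, 1 lower in edgeR and 2 in DESeq2). As over all genes, calls moved with the library left out for these 10. Their log2 fold changes ran from −1.93 ± 0.48 (SE, limma adjusted p = 0.0692) for Myh7, the slow myosin heavy chain, to 0.63 ± 0.69 (adjusted p = 0.529) for Myh7b, with a median of −0.71. The slow members had a median of −2.58, which includes Tnni1 and Tnnc1 with 0 reads in isolated mitochondria 1. It was −0.84 without that library, −4.15 without isolated mitochondria 2, −1.73 with a pseudocount of 10, −1.12 in edgeR and −1.24 in DESeq2. As a share of nuclear reads without copies, the slow members held 0.0346% and 0.0663% in remaining tissue and 0.0277% (exact 95% interval 0.0184 to 0.0401%) and 0.0596% (0.0489 to 0.0720%) in isolated mitochondria. These shares overlapped between the fractions.

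The genes whose pattern over the 4 libraries was most like the mean of the fast members were Larp1 and Eif5b, at Euclidean distances of 0.03 and 0.047 on centred log2 values, among 1616 nuclear genes with a mean of at least 100. Larp1 had 368 and 372 normalized counts in remaining tissue and 154 and 157 in isolated mitochondria. Closest to the slow members were Lmod2, Hdac4 and Irs1, at the larger distances of 0.591, 0.638 and 0.656, and each had few reads in isolated mitochondria 1. The mean of the slow members includes Tnni1 and Tnnc1 with 0 reads in isolated mitochondria 1, where the pseudocount sets their values. Lmod2, a thin filament leiomodin, had 154 and 166 in remaining tissue and 9 and 86 in isolated mitochondria. Its ratio of remaining tissue 2 over 1 was 1.08, against 1.76 to 2.08 for the slow members.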

How the data were processed

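RNA of isolated mitochondria and of remaining tissue was sequenced from 10 ng input with a stranded kit and single reads of 75 bases. Per the labels, the authors used Trimmomatic 0.39 for trimming, STAR 2.7.10a for alignment to mm10 (GRCm38) and featureCounts 2.0.2 for counts over exons, without reads of several genes or places, and compared groups with DESeq2 1.30.1, while the methods give other versions of the last 3 tools. The signal deposited for each gene is its read count divided by a size factor and rounded. Low values of isolated mitochondria (under 2000) were whole multiples of the value of 1 read for 99.95% of 10508 and 99.97% of 11660 values. Reads of remaining tissue were estimated (7.05 a normalized count).

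The 9 members and all gene lists were chosen with earlier results of these data known. Groups and replicate numbers came from the labels. Genes with a mean of at least 20 entered limma 3.58.1 as log2(normalized count + 1) (eBayes with trend, two-sided, Benjamini-Hochberg over 6916 genes, threshold 0.05) in R 4.3.3. The pseudocount of 1 shrinks changes of low genes, but it is less than 1 read in isolated mitochondria, so that genes at 0 reads there get larger changes than with a pseudocount of 10 or in edgeR. Fast to slow ratios used an exact permutation test. There were 16 alternative settings, with edgeR 4.0.16 and DESeq2 1.42.0 on reads among them. Scripts were tested on simulated data. Named genes were the members, the extremes of each list, Tnnt2, Tpm4 and the 3 nearest profiles to each fibre type (1 is not reported here), and Acta1 and Myl2 were added after their values were seen. Nuclear copies of mitochondrial genes were 17 genes found with BLAST 2.17.0 (at least 30 bases and 85% identity over 50% of the transcript). Of 16472 gene identifiers, 16457 were found in GENCODE M21, which gave lengths (union of exons, or the longest transcript where stated) and coordinates. Reads carry no molecular identifiers, so intervals cover counting error only.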

Additional observations from a re-analysis of the deposited data

How the results depend on the processing

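Members called lower (4, beside 9.30% of all genes) were 1 when scaled to nuclear genes without copies, when 2.65% of all genes were. They were 8 when scaled to genes not encoded in mitochondria (80.5% of all genes) and 9 when scaled to the sum over all genes (96.7%). In the first of these scalings Tnnc2 was at 0.30 and Tpm3 at 0.36. Tnnt3 was called lower in 16 of 16 settings, Tpm2 in 15, Tpm1 in 13 and Tnni2 in 12. Whether libraries with the same number belong together is not given. The correlation of same-numbered differences was 0.14 over 6916 genes and 0.69 over the 9 members. With a replicate block 7 members (also Tnnt1, Tnni1 and Tnnc1), 3 other slow fibre genes and 1144 genes in all were lower.

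Other scalings shifted the median of all genes from −0.44 to −0.89 (upper quartile), −3.38 (genes not encoded in mitochondria), −7.27 (sum over all genes) and 0.43 (nuclear genes without copies). Under these 4 scalings 1421, 5568, 6686 and 183 genes were lower. Higher genes (506) were 109, 39 and 1108 under the last 3, and the share of calls that were higher went from 44.0% to 23.4%, 1.9%, 0.6% and 85.8%. Lower genes (643) were 3026 without a filter, 399 at a mean of 5 (283 higher), 374 without trend and 417 with quantile normalization. Higher genes were 1106 in edgeR and 1404 in DESeq2. With libraries left out, 296 to 1724 genes were higher and 176 to 3198 lower. Quantile normalization moved the median of the fast members to −4.80, and the cause was not tested.

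Other thin filament genes lower (7) were 4 at a mean of 5 and with quantile normalization, 3 without trend, 11, 13 and 2 under the last 3 scalings, and 3 to 11 with libraries left out. Other slow fibre genes lower (0) were 2, 10 and 10 under the first 3 scalings, 1 in edgeR, 2 in DESeq2 and 0 to 2 with libraries left out. Scaled to the sum over all genes, Tnnt2 was at −1.77, Tpm4 at −4.90 and Myh7b at −6.15. Scaled to genes not encoded in mitochondria, Tpm4 was at −1.01 and Myh7b at −2.27, and Myh7b was at −0.13 without isolated mitochondria 1 and 1.39 without isolated mitochondria 2.

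Ratio differences with libraries left out ran from −0.31 to 0.62 for troponin T (−0.09 without isolated mitochondria 1), 0.97 to 5.01 for troponin I, −0.61 to 6.02 for troponin C and −1.44 to −0.58 for tropomyosin. A pseudocount of 10 moved the difference from 2.99 to 1.18 for troponin I and from 2.70 to 1.12 for troponin C. A pseudocount of 0 gave no value for these pairs. With the longest transcript as length, levels per kilobase in remaining tissue were 19142.3 (Tnnt3), 274.8 (Tnnt1), 12087.7 (Tnni2), 34.6 (Tnni1), 18275.7 (Tnnc2), 6163.0 (Tpm1), 166.0 (Tpm3) and 3799.3 (Tpm2), and slow troponin T made up 1.22% in isolated mitochondria. Slow members rest on 0 to 70 reads a library of isolated mitochondria, which limits what could be detected.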
